A study of Homo sapiens and Mus musculus with 13 samples.

Results

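The mitochondrial ribosomal protein genes encode the protein subunits of the ribosome that works inside mitochondria. They were taken by name from mouse RNA sequencing tables, as every gene whose symbol is Mrpl or Mrps followed by a number and at most 1 letter, with a mean normalized read count of at least 10 over 5 libraries. This gave 76 genes of 37991 listed, and all 76 named genes met the minimum, so none was lost to it. The naming rule used no expression difference, but the members were chosen with earlier results of these data known.

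The cells were a mouse line of haematopoietic progenitors that HOXB8 keeps dividing, cultured with CHO-SCF conditioned medium, a source of stem cell factor, and beta-estradiol. The first group was 3 single-cell clones, labelled 12, 18 and 4, in which CRISPR/Cas9 had placed NPM1c, the mutant nucleophosmin of human acute myeloid leukaemia that moves to the cytoplasm. The series design text names the insert NPM1ca-GFP. The other group was 2 libraries of the parental line, labelled wild type, which carries the same HOXB8 immortalization. Each knock-in library is 1 clone, and the labels do not state whether separate cultures gave the parental libraries, so p-values measure the spread between these libraries, which may be partly clonal or technical. The deposited tables head the clone columns with other clone numbers than the sample titles do, and clones are named here by title. That mismatch stays within the knock-in group. The series also holds 8 libraries of a human leukaemia line, which were not used here.

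Mitochondrial ribosomes translate the few proteins encoded by mitochondrial DNA, all of them core subunits of the respiratory chain and of ATP synthase. Their RNA comes from mitochondrial DNA, but every protein subunit is encoded in the nucleus, made in the cytosol and imported. Some subunits descend from bacterial ribosomal proteins and others were added in mitochondria. In blood progenitors and leukaemia cells this machinery is studied because respiration depends on it.

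Values are read counts divided by a size factor per library, called normalized read counts here. They are not divided by gene length, so levels are compared between groups and not between genes. The libraries corresponded to 7358340 to 12235174 reads in the clones, and to 9728260 and 99557475 reads in parental replicates 1 and 2, so that parental replicate 2 stood apart in depth. Members had 51 to 18729 reads per library. Npm1, the targeted gene, was at 15141, 14144 and 14305 in clones 12, 18 and 4, against 25695 and 25714 in parental replicates 1 and 2, with -0.82 as the log2 fold change by limma (SE 0.0673, adjusted p = 0.000533). All clones were thus below both parental libraries for Npm1, and mutant and normal transcripts are not separated in these values. The 6 progenitor markers tested were present in all 5 libraries. Of these, Myb and Ptprc were higher in the clones (log2 fold changes 0.34 and 0.57, adjusted p = 0.0412 and 0.0432, limma), Flt3 was lower (-0.53, adjusted p = 0.0117, limma), and Kit, Cd34 and Hoxb8 did not pass (0.34, -0.01 and -0.25). Summed mast cell and basophil markers ranged from 5441 to 8010 in the clones and from 1260.0 to 3490 in the parental libraries, with all 10 genes of that list above 0 in at least 1 library. Of the 6 tested, 4 were higher by limma (66.7%, against 7.51% of all genes tested). These were Il1rl1, Tpsb2, Ms4a2 and Mcpt8 (log2 fold changes 8.27, 7.50, 3.89 and 1.89), and Hdc and Cpa3 did not pass (1.09 and 1.79). Summed erythroid markers were at 47.6 to 87.4 in the clones and 3.11 to 8.40 in the parental libraries, and Hba-a1 was at 0 in all. Summed B cell markers were at 735.5 to 1013 in the clones and 1399.9 to 1464.5 in the parental libraries. Stromal and endothelial markers summed to 24.6 to 239 in the clones and 40.4 to 50.2 in the parental libraries, with Cdh5, Tek and Col3a1 at 0 in all. The highest sum was mostly Pdgfrb in clone 12, at 233, against 55.5 and 24.6 in clones 18 and 4 (adjusted p = 0.418, limma). Col1a2 was lower in each clone than in either parental library. T and NK cell markers summed to 0 in the clones and to at most 0.305 in the parental libraries. The part of these markers in the results below was not tested. In bulk RNA, a change in the cells present and a change in RNA per cell cannot be told apart.

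Few of the mitochondrial ribosomal protein genes passed the test between clones and parental cells, and the fitted differences were all below 2-fold. By limma on log2(value + 1), with Benjamini-Hochberg adjustment across all 13132 tested genes, 5 of 76 members passed an adjusted p of 0.05, which is 6.58% of them, while 16.0% of all genes tested did. Mrpl43 was higher in the clones, and Mrpl24, Mrpl47, Mrpl23 and Mrps21 were lower. Of all genes, 7.51% were higher and 8.49% lower. The median log2 fold change of the members was 0.02, with 39 above 0 and 37 below, and that of all genes tested was 0.01. The members' fold changes ran from -0.70 to 0.73 on the log2 scale, and none reached a 2-fold change in either direction, whereas 1344 of the genes tested had one. At an unadjusted p of 0.05, 11 members passed, or 14.5%, against 31.1% of all genes.

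**Figure D1:**
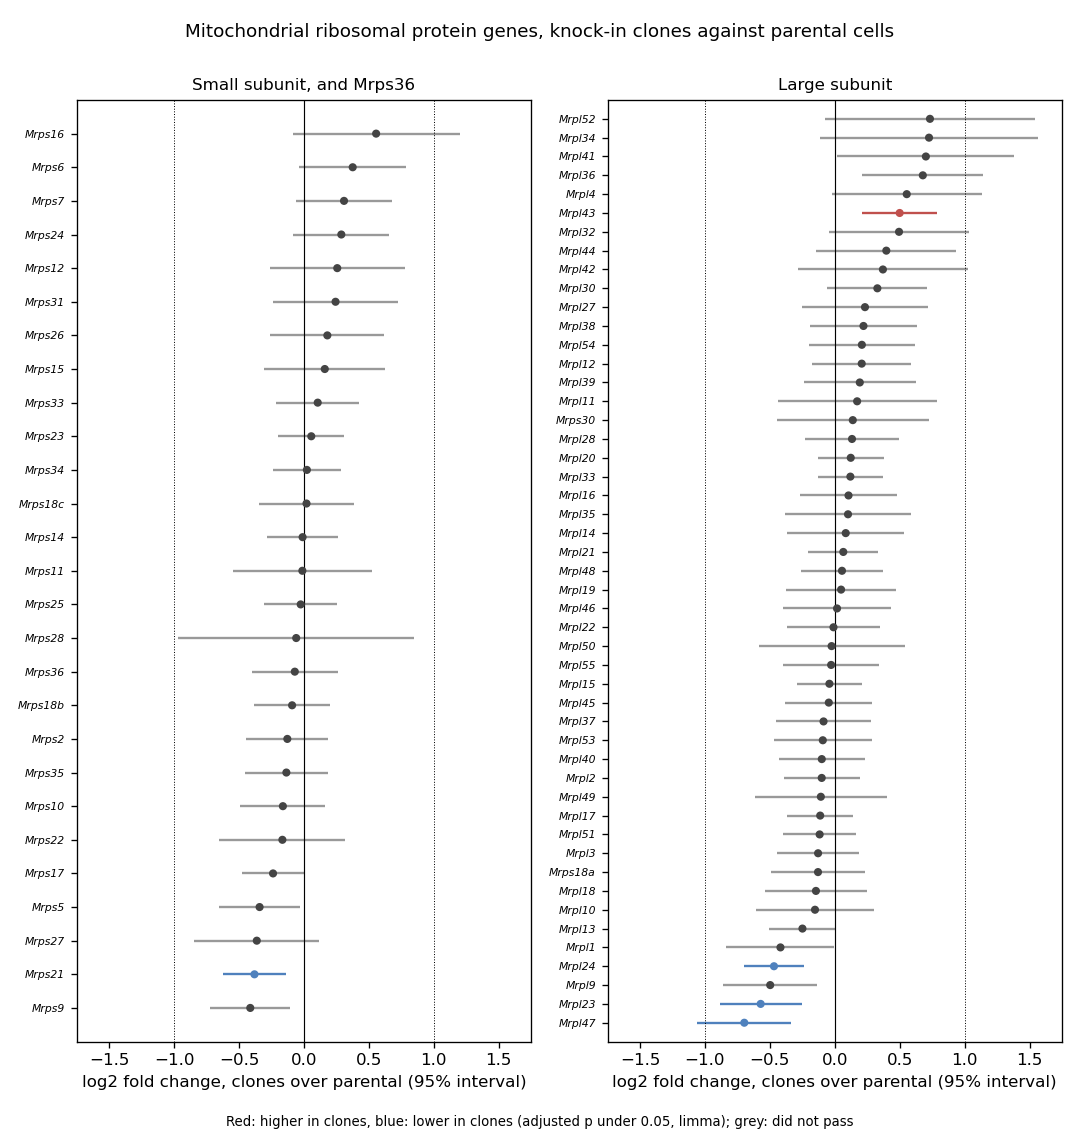
Log2 fold change of each member in knock-in clones over parental cells (x axis), with the 95% interval of the limma fit, by subunit (y axis, gene symbols). Of 76 members, 67 have an interval inside the dotted lines at -1 and 1, and the 5 coloured ones passed the test.

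A fold change that misses the test does not show equal levels, and at this number of libraries differences of the members' size can be missed, so the intervals are given too. The 95% interval of the log2 fold change lay between -1 and 1 for 67 of 76 members (88.2%), a size of difference below 2-fold, and this held for 68.0% of all genes tested. The other 9 were Mrpl47, whose interval reached below -1 (-1.06 to -0.33), and Mrpl36, Mrpl41, Mrpl4, Mrpl32, Mrpl52, Mrpl34, Mrps16 and Mrpl42, whose intervals reached above 1. The highest of these upper bounds was 1.57, for Mrpl34. Groups did not overlap for 23 members (30.3%), with all clones above the parental libraries in 11 and below in 12, and for 50.2% of all genes tested. Standard errors of the members ranged from 0.0988 to 0.381.

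Summed over all members, the normalized read counts were 42840, 45777 and 41483 in clones 12, 18 and 4, against 45217 and 44173 in parental replicates 1 and 2. The clones lay on both sides of the parental libraries. The mean was 43367 ± 2195 in the clones (SD, n = 3) and 44695 ± 738 in the parental cells (SD, n = 2), a difference smaller than the spread among the clones. The members made up 0.275% to 0.306% of all normalized reads in the clones and 0.291% to 0.299% in the parental libraries. The small-subunit sum was 64.1%, 62.4% and 63.2% of the large-subunit sum in clones 12, 18 and 4, against 61.5% and 66.7% in parental replicates 1 and 2, so the balance between subunits in the clones fell between the parental values. Across the 76 genes, the order of levels was nearly the same in clones and parental cells (Pearson's r = 0.971 of log2 means, Spearman's rho = 0.969), as a description, since gene length and library are shared by the points.

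The large subunit holds the peptidyl transferase centre and the tunnel through which the new protein leaves. Of its 49 members, counted by their place in the ribosome, 1 was higher and 3 were lower, and 45 did not pass. The share called was 8.16%, against 16.0% of all genes tested. Their median log2 fold change was 0.06, and -0.03 without parental replicate 2. The 3 that were lower correspond to bacterial proteins uL23, uL24 and uL29, which in bacterial ribosomes sit around the mouth of the exit tunnel.

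Mrpl24 (ENSMUSG00000019710), the uL24 counterpart, had 1923, 2094 and 2240.2 in clones 12, 18 and 4, against 2902 and 2859 in parental replicates 1 and 2. The groups did not overlap, and the parental libraries were close together. It averaged 2086 ± 159 in the clones (SD, n = 3) and 2881 ± 30.4 in the parental cells (SD, n = 2), so that limma put the log2 fold change at -0.47 (SE 0.0988, adjusted p = 0.0181). Mrpl47 (ENSMUSG00000037531), the uL29 counterpart, had 225, 258 and 275 in the clones, against 424 and 395 in the parental libraries. All clones were below both parental libraries, and the log2 fold change of -0.70 was the most negative among the members (SE 0.156, adjusted p = 0.0226, limma). Mrpl23 (ENSMUSG00000037772), the uL23 counterpart, had 364, 415 and 379.5 in the clones, against 583 and 565 in the parental libraries. Its log2 fold change was -0.57 (SE 0.136, adjusted p = 0.0276, limma), with no overlap. Mrpl23-ps1, a pseudogene by its symbol, was at 252, 287 and 267 in the clones and 402 and 389.6 in the parental libraries (log2 fold change -0.56, adjusted p = 0.0382, limma). Reads of the gene and of the pseudogene may have been split between them by the counting, so the level of Mrpl23 is uncertain.

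The other 6 members placed around the exit in mitochondria did not pass. This grouping of 9 genes was made after the values were seen, and it is a description only. The uL22 counterpart Mrpl22, also in the bacterial tunnel, had 244, 239 and 215 in the clones and 239 and 229 in the parental libraries (log2 fold change -0.01). Mrpl45, which helps to hold the ribosome at the inner membrane, had 512, 598 and 480.05 in the clones and 534 and 556 in the parental libraries (log2 fold change -0.05, 95% interval -0.38 to 0.29). The clones of Mrpl45 lay on both sides of the parental libraries. Mrpl44, a subunit with a ribonuclease III fold, had 293, 293 and 289 in the clones and 291 and 169 in the parental libraries (log2 fold change 0.40, 95% interval -0.14 to 0.93). The clones of Mrpl44 agreed closely with one another and with parental replicate 1, while parental replicate 2 was lower. Of the 9 genes, 3 were lower and 6 did not pass, with a median log2 fold change of -0.05. Of all genes tested 8.49% were lower, and since the grouping was drawn up with the 3 lower genes in view, nothing is read from its share.

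Mrpl43 (ENSMUSG00000025208), a subunit that mitochondria added, was the 1 member that was higher. It had 617, 659 and 615 in clones 12, 18 and 4, against 449 and 442 in parental replicates 1 and 2. The groups were well apart, at 631 ± 25.0 in the clones (SD, n = 3) and 445 ± 4.99 in the parental cells (SD, n = 2). The log2 fold change was 0.50 (SE 0.124, 95% interval 0.21 to 0.79, adjusted p = 0.0329, limma), or 1.41-fold.

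**Figure D2:**
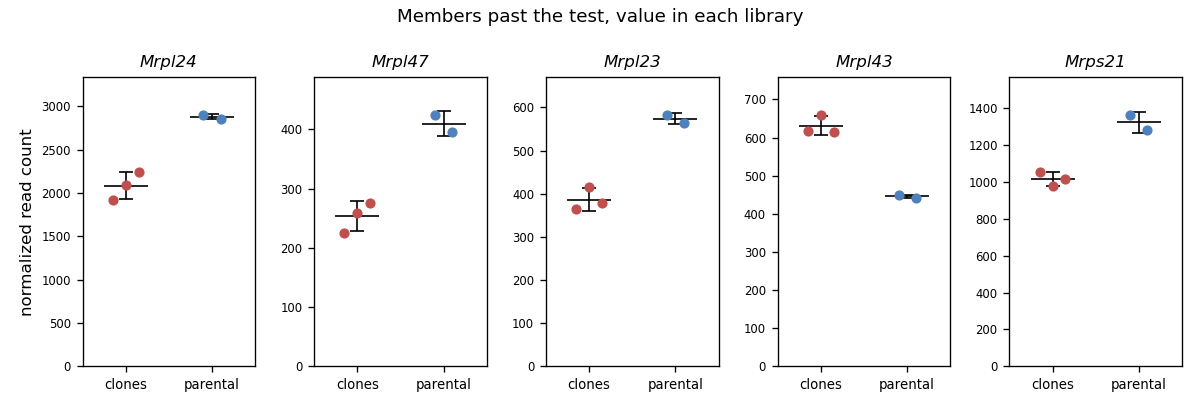
Normalized read count (y axis, from 0) of the 5 members past the test in each knock-in clone and each parental library, with the group mean and SD. Mrpl43 lies above its parental libraries in all 3 clones, and the other 4 lie below theirs.

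The stalk of the large subunit recruits translation factors. Mrpl12, its bL12 counterpart, which is also known to bind the mitochondrial RNA polymerase, had 875, 1039.8 and 788 in the clones, against 876 and 686 in the parental libraries. The groups overlapped (log2 fold change 0.21, SE 0.165, adjusted p = 0.425, limma). Mrpl10 and Mrpl11, at the stalk base, had log2 fold changes of -0.15 and 0.17 and did not pass (adjusted p = 0.632 and 0.692, limma).

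The small subunit decodes messenger RNA. Of its 26 members, 1 was lower and 25 did not pass (3 of the 26 passed at an unadjusted p of 0.05), a share of 3.85% against 16.0% of all genes tested, with a median log2 fold change of -0.01. Mrps21 (ENSMUSG00000054312), the bS21 counterpart, had 1054, 976 and 1018 in clones 12, 18 and 4, against 1364 and 1283 in parental replicates 1 and 2. All clones were below both parental libraries, and the means were 1016 ± 38.7 in the clones (SD, n = 3) and 1323.5 ± 57.5 in the parental cells (SD, n = 2). The log2 fold change by limma was -0.38 (SE 0.104), and its adjusted p of 0.0450 was near the threshold. Mrps12, the uS12 counterpart at the decoding centre, had 708, 716 and 443 in the clones, against 500.3 and 518 in the parental libraries (log2 fold change 0.26, SE 0.223, adjusted p = 0.467, limma). Clones 12 and 18 were above both parental libraries and clone 4 was below both, and without clone 4 it passed as higher (adjusted p = 0.0461, limma).

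Mrps18a, Mrps18b and Mrps18c are paralogues of the bacterial bS18 protein. Mrps18c takes the bS18 place, Mrps18b is a further small-subunit protein, and Mrps18a sits in the large subunit. Mrps18a had 521, 619.8 and 468 in the clones and 578 and 587 in the parental libraries. Mrps18b had 1085, 1260.2 and 1075 in the clones and 1117 and 1313 in the parental libraries. Mrps18c had 517, 678 and 677 in the clones and 614 and 608 in the parental libraries. All 3 paralogues overlapped between the groups, with log2 fold changes of -0.13, -0.09 and 0.02 and intervals within 0.49 of 0 on the log2 scale. Mrps36, which despite its name is an adaptor of the 2-oxoglutarate dehydrogenase complex, had 673, 848 and 778 in the clones and 750.4 and 855 in the parental libraries (log2 fold change -0.07, adjusted p = 0.769, limma). Its groups overlapped as well, and 2 pseudogenes of it are listed that may share reads.

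By origin, 4 of 46 members with a bacterial counterpart passed, all of them lower, and 1 of 29 mitochondrial additions passed, which was higher. These are 8.70% and 3.45% of the classes, against 8.49% of all genes tested that were lower and 7.51% that were higher. Their median log2 fold changes were 0.00 and 0.02. The difference between these classes was not tested.

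By their medians, the clones did not all lie on the same side of the parental mean. Relative to the parental mean on the log2(value + 1) scale, the median member was at 0.01 in clone 12, 0.09 in clone 18 and -0.06 in clone 4. Members above the parental mean numbered 40, 52 and 35 of 76 in clones 12, 18 and 4. All 3 clones lay on the same side of the parental mean for 42 of 76 members. That share was not computed over all genes, so nothing is read from it. The SD among clones was below 0.1 on the log2 scale for 29 of 76 members and for 27.3% of all genes tested. The widest spread among clones was in Mrps12, Mrps11 and Mrpl27 (log2 SD of 0.39, 0.39 and 0.32), and in each of these clone 4 was the lowest. Mrps11, the uS11 counterpart, had 425, 510.4 and 299.5 in clones 12, 18 and 4, against 381 and 432 in the parental libraries. Mrpl27, the bL27 counterpart near the peptidyl transferase centre, had 373, 489.8 and 314 in the clones, against 305 and 354 in the parental libraries.

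**Figure D3:**
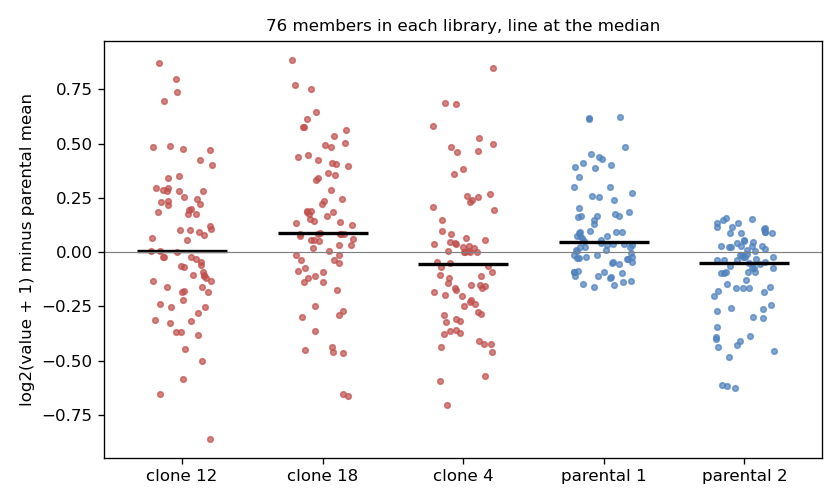
Each dot is a member, with its log2(value + 1) minus the mean of the parental libraries (y axis), in each library (x axis), and the line marks the median. The clone medians lie at 0.01, 0.09 and -0.06, and the parental values mirror each other because both enter their own mean.

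The parental libraries differed from each other in part of the members. The value in parental replicate 2 was lower than in replicate 1 by over 1.5 times in 14 of 76 members (18.4%) and in 7.81% of all genes tested. It was higher by that factor in no member and in 5.06% of all genes. For comparison, 23 of 80 respiratory chain subunits (ATP synthase genes included) and 8 of 79 cytosolic ribosomal proteins were lower in replicate 2 by that factor. Parental replicate 2 was also the most deeply sequenced library, at 99557475 reads, and the part of depth in this difference was not tested. The 14 were all among the 24 members with a mean value under 300, a level chosen after the values were seen. Among all genes with a mean of 100 to 300 the share was 7.90%. Mrps28, the bS1 counterpart, had 151, 155 and 105 in clones 12, 18 and 4, against 218 and 91.0 in parental replicates 1 and 2. Its parental libraries lay on either side of all clones. Mrpl52, a mitochondrial addition, had 154, 132 and 135 in the clones, against 129 and 54.3 in the parental libraries. Mrpl34, the bL34 counterpart, had 240.1, 255 and 195 in the clones, against 211 and 89.8 in the parental libraries. In both the clones were nearer to parental replicate 1 than to replicate 2, with log2 fold changes of 0.73 and 0.73 that did not pass (adjusted p = 0.199 and 0.216, limma). For 45 of 76 members the gap between the parental libraries exceeded the absolute fold change between groups. This was a larger share than the 39.3% of all genes for which it did.

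**Figure D4:**
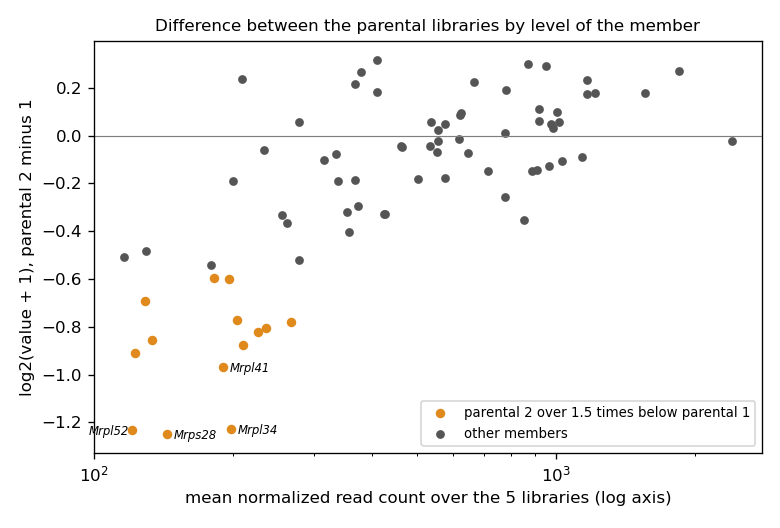
Difference between parental replicates 2 and 1 on the log2(value + 1) scale (y axis) against the mean normalized read count of the member over the 5 libraries (x axis, log scale). The 14 orange members, more than 1.5 times lower in replicate 2, all have means under 300.

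The calls changed when single libraries were left out, which also leaves the test with fewer libraries. Without clone 12 none of the members passed by limma (8 at an unadjusted p of 0.05), and 7.73% of all genes did. Without parental replicate 2 none passed either (11 at an unadjusted p of 0.05), and 7.47% of all genes did. Without parental replicate 1, 7 members passed, all of them higher (Mrpl34, Mrpl52, Mrpl41, Mrpl36, Mrpl44, Mrpl4 and Mrps16), and none of the 5 named above, while 13.5% of all genes passed. All genes also had more higher than lower calls in that fit, 1216 higher and 560 lower, against 986 higher and 1115 lower with all libraries. Without clone 18 only Mrpl23 and Mrpl24 passed, with 12.6% of all genes. Without clone 4, 5 passed, with Mrps12 in place of Mrps21, and 16.1% of all genes did. With all libraries kept, the edgeR test on whole reads called the same 5 members (16.8% of all genes) and DESeq2 called 8 (20.4%). The 3 that DESeq2 added were among those nearest the threshold by limma. Mrpl36, the bL36 counterpart, had 219, 201 and 211 in the clones, against 158 and 109 in the parental libraries (log2 fold change 0.68, adjusted p = 0.0586, limma). Mrpl9, the bL9 counterpart, had 473, 547 and 410.3 in the clones, against 685 and 653 in the parental libraries (log2 fold change -0.50, adjusted p = 0.0701, limma). Mrps9, the uS9 counterpart, had 459, 433 and 441 in the clones, against 631 and 556 in the parental libraries (log2 fold change -0.41, adjusted p = 0.0753, limma). All clones lay on one side of both parental libraries in these 3 genes. The share of all genes called was 15.8% and 16.3% with pseudocounts of 0.5 and 5, 7.03% with no minimum level, 17.1% with a minimum of 50, 15.7% with scaling to library totals, 15.9% with TMM scaling and 15.7% without robust moderation, and members called there numbered 4 or 5. Leaving out 1 library at a time kept the sign of the fold change in all 5, within -0.52 to -0.41 for Mrpl24, -0.76 to -0.62 for Mrpl47, -0.62 to -0.53 for Mrpl23, 0.47 to 0.52 for Mrpl43 and -0.43 to -0.34 for Mrps21.

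Subunits of the same ribosome that carry other names were read from a separate list. Of its 8 genes, which include the membrane insertase Oxa1l, 1 was lower and 7 did not pass. The share called was 12.5%, against 16.0% of all genes tested. The median log2 fold change of the 8 was 0.27, and in 4 of them parental replicate 2 lay below replicate 1 by over 1.5 times. Dap3, a small-subunit protein that binds GTP, had 2652, 2680.5 and 2636 in clones 12, 18 and 4, against 4083 and 4281 in parental replicates 1 and 2. Its clones were tightly grouped and all below the parental libraries (log2 fold change -0.65, SE 0.0820, adjusted p = 0.0025, limma), and it still passed with any 1 library left out, with adjusted p of at most 0.0229.

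Factors that work with this ribosome were read from further lists, beside the 16.0% of all genes tested that passed. Among 14 translation factors tested, 1 was lower (7.14%), with a median log2 fold change of -0.03. Gfm1, the elongation factor that moves the ribosome along the messenger, had 657, 796 and 650.3 in the clones, against 1195 and 1181 in the parental libraries (log2 fold change -0.77, SE 0.131, adjusted p = 0.0090, limma). Among 19 aminoacyl-tRNA synthetases, which include 2 shared with the cytosol (Gars and Kars), 2 were lower (10.5%), with a median of 0.03. Tars2, which charges the threonine tRNA, had 1215, 1135 and 1171 in the clones, against 1648.5 and 1737 in the parental libraries (log2 fold change -0.53, adjusted p = 0.0120, limma). Wars2, for tryptophan, had 135, 128 and 115 in the clones, against 188 and 198 in the parental libraries (log2 fold change -0.61, adjusted p = 0.0477, limma). Both groups of values lay apart for these 3 genes.

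Among 25 assembly identifiers 1 was higher, with a median log2 fold change of 0.07. It was 1 of 2 identifiers of Nsun4, an rRNA methyltransferase partner of assembly, with 394, 325 and 505 in the clones, against 255 and 211 in the parental libraries (log2 fold change 0.79, adjusted p = 0.0431, limma), and the other identifier did not pass. None of 8 tested genes of mitochondrial DNA copying and transcription, from a list of 13, passed by limma, edgeR or DESeq2, and 0 had an unadjusted p below 0.05. By limma 16.0% and 31.1% of all genes tested passed these 2 thresholds. Of 10 regulators of nuclear genes for mitochondria, 1 was higher and 2 were lower (30.0% called), with a median of 0.00. Nrf1, a transcription factor known for such genes, had 1982, 2492 and 2189 in the clones, against 3014 and 3123 in the parental libraries (log2 fold change -0.47, adjusted p = 0.0298, limma). Gabpb1, a subunit of the ETS factor GABP, had 1731, 1312.5 and 1481 in the clones, against 2315 and 2638 in the parental libraries (log2 fold change -0.72, adjusted p = 0.0125, limma). Mycn, of the MYC family, had 731, 491 and 687 in the clones, against 294 and 298 in the parental libraries (log2 fold change 1.08, adjusted p = 0.0101, limma), whereas Myc itself had a log2 fold change of -0.03. All clones were below the parental libraries for Nrf1 and Gabpb1 and above them for Mycn. Of the 8 genes called in these 6 lists, only Dap3, Gfm1 and Mycn passed in all 5 fits that left out 1 library. Tars2 and Gabpb1 were lost without parental replicate 2 (adjusted p = 0.0685 and 0.0760, limma), Nrf1 was lost without clone 12 or either parental library, Nsun4 was lost in all but the fit without clone 18, and Wars2 in each of the 5.

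**Figure D5:**
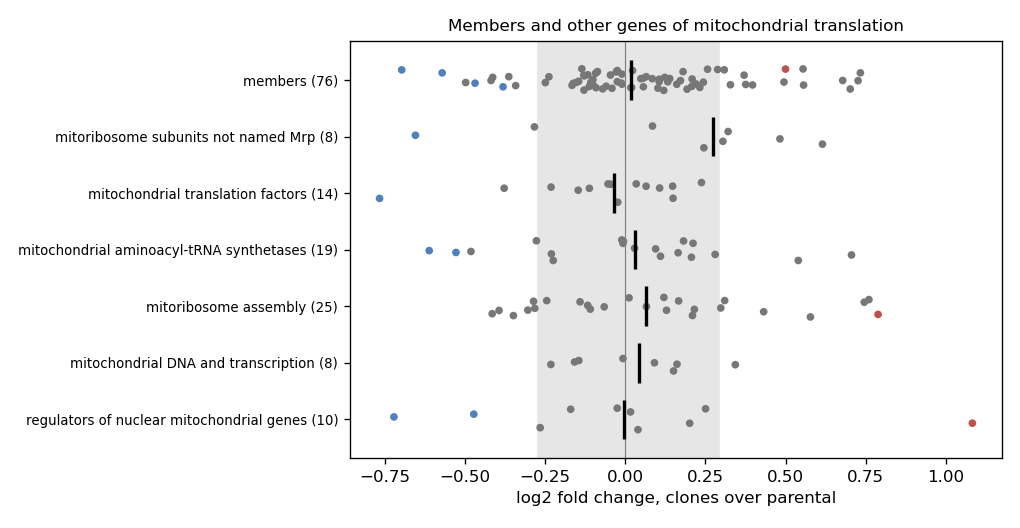
Log2 fold change, clones over parental (x axis), of each member and of each tested gene in 6 lists of mitochondrial translation and its regulation (rows, with the number of genes), with the median as a line. Red and blue passed the test as higher and lower, and the grey band is the middle 50% of all genes tested, from -0.27 to 0.29.

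The ribosomal proteins of the cytosol and the respiratory chain subunits, taken here together with ATP synthase genes, are the nearest gene families in function. Of 79 cytosolic ribosomal protein genes 13 were higher (16.5%, against 7.51% of all genes tested) and the other 66 did not pass. Their median log2 fold change was 0.22. Of 80 respiratory chain subunits 1 was higher and 3 were lower, a smaller share than the 16.0% of all genes tested that passed. Their median log2 fold change was 0.21. The median log2 difference of parental replicate 2 from replicate 1 was -0.20 in these subunits. It was 0.004 in the cytosolic ribosomal proteins and -0.10 in the members. The part of this parental difference in the median of 0.21 was not tested. The mitochondrial ribosomal protein median was 0.02, and the differences between these families were not tested.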

How the data were processed

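Per the labels' protocols, total RNA came from a RNeasy micro kit and the mouse libraries from a NEBNext Ultra II kit. Tools listed in the submitters' processing notes are DESeq2, RSEM and STAR 2.6.1, and builds are mm9 and hg19, with no role stated. Strand use and annotation: not given in the sources used here. The authors deposited 1 signal value per Ensembl gene and library, read counts divided by a size factor, per the file headers and the values. In each library 100% of values above 0 were whole multiples of the smallest, within 0.01, which gave whole reads.

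The main test was limma 3.58.1 (R 4.3.3) with trend and robust moderation on log2(value + 1) for genes with a mean of at least 10, with all 5 mouse libraries, no covariate and Benjamini-Hochberg adjustment. This scale gives fold changes that are too small for genes with few reads. The fit was tested on simulated data, where it missed nearly all of the smallest differences set and called most of the larger ones. Far fewer genes were changed there than were called here, which makes the adjusted threshold stricter, so this recovery does not carry over to the members. A member that did not pass may still differ. The recovered reads were also tested with edgeR 4.0.16, which called 2206 genes, and with DESeq2 1.42.0. 823 genes had no symbol. Genes were placed in subunits by hand from general knowledge of the ribosome's structure. Listed genes were matched by symbol, and some were not found. Matches were 8 of 13 for mitochondrial DNA and transcription, 24 of 31 for assembly and 14 of 15 for translation factors. They were 11 of 12 for regulators and 6 of 7 for progenitor markers, and the other lists were matched in full. Named members were those past the test, 8 chosen by role, and the 3 with the widest clone spread and parental gap. Members and lists were chosen with earlier results of these data known. Mrpl9, Mrps9, Mrpl36, Mrpl10, Mrpl11, Mrpl22 and the members named by interval or parental gap were added after their values were seen. Sequences, gene coordinates and promoter motifs were not analysed here.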

Additional observations from a re-analysis of the deposited data

How the results depend on the processing

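With DESeq2 8 members passed, adding Mrpl9 and Mrps9 as lower and Mrpl36 as higher. With the other settings that kept all libraries (pseudocounts of 0.5 and 5, no minimum, a minimum of 50, library totals, TMM scaling, edgeR, no robust moderation) 4 or 5 passed, and Mrps21 was lost with no minimum and without robust moderation. Leaving out 1 library gave 0 to 7 members, 981 to 2117 genes of all, median member log2 fold changes of -0.01 to 0.05, and 3 to 12 genes called in the 6 mitochondrial lists, where 8 passed with all libraries and 5 with no minimum. The median difference of clone 4 was -0.06, and without parental replicate 2 or 1 it was -0.1397 or -0.0277. Npm1 stayed between -0.85 and -0.80. Of 378 values of named genes under an alternative, 335 kept their side of the threshold, 39 lost it, 4 gained it and none reversed. The 335 include values of genes that did not pass in the main fit and so had no call to lose. They are therefore no measure of how stable the calls were. Assigning subunits by symbol letter left 1 and 4 calls. The promoter motif alternative was not run. With 1 library left in a group, that library is assumed to vary like the other group. No paired analysis was possible because clones and parental replicates share no number.

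With 3 clones and 2 parental libraries, the median SE of a member was 0.159 on the log2 scale, against 0.177 over all genes tested. The smallest change among the members that passed was that of Mrps21, -0.38, with an SE of 0.104. Mrpl52 and Mrpl34, at 0.73 each, did not pass, and their own SEs were 0.345 and 0.352. Whether a change was called thus depended on the SE of its own gene as well as on its size.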

Other observations

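Pseudogenes of 2 further members are listed with reads of their own. Mrpl48-ps was at 60.3, 34.9 and 34.9 in clones 12, 18 and 4, against 37.3 and 50.1 in parental replicates 1 and 2. Mrps36-ps1 was at 107, 166 and 142 in the clones and 131 and 154.5 in the parental libraries, and Mrps36-ps2 at 48.0, 57.1 and 63.6 in the clones and 55.9 and 67.0 in the parental libraries. The groups overlapped in all 3, and none passed (adjusted p = 0.944, 0.883 and 0.745, limma).

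Some members were almost identical in the clones, a choice made after their values were seen. Mrpl13, the uL13 counterpart, had 845, 846 and 847 in clones 12, 18 and 4, against 1058 and 956 in parental replicates 1 and 2. All clones were below both parental libraries, but the difference did not pass (log2 fold change -0.25, SE 0.110, adjusted p = 0.171, limma). Mrps27, a mitochondrial addition of the small subunit, had 161, 162 and 162 in the clones, against 256 and 169 in the parental libraries. Its clones were also below both parental libraries, which differed more from each other (log2 fold change -0.36, SE 0.207, adjusted p = 0.272, limma).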
